A study of Homo sapiens with 12 samples.

Results

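The growth-cone genes examined here were GAP43, the 4 stathmins STMN1, STMN2, STMN3 and STMN4, and the 5 collapsin response mediator proteins (CRMPs) CRMP1, DPYSL2, DPYSL3, DPYSL4 and DPYSL5. They were chosen by name, and all 10 were found among the 28278 gene symbols of the count table and had enough counts to be tested in every comparison. The cells were motor neurons differentiated from WA09-Islet1-GFP human embryonic stem cells, an established reporter line in which GFP marks cells that express the transcription factor Islet1. The 12 libraries form 4 groups of 3 biological replicates: control cells given the vehicle DMSO and cells treated with the pesticide cis-chlordane for 16 h, each sorted by FACS into GFP-positive and GFP-negative cells. The labels give the dose as 10 µM, whereas the study's methods name another dose for sequencing, and because every sample title opens with "untreated", groups were assigned from the labels' separate treatment field. All groups derive from a single reporter line, a biological replicate was a separate thaw, and GFP reports ISL1, which is not confined to mature motor neurons.

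The growth cone is the motile tip of a growing axon, where microtubules extend and shrink as the axon steers. GAP43 is a palmitoylated membrane protein of the growth cone that binds calmodulin and is phosphorylated by protein kinase C. Stathmins bind free tubulin dimers and promote microtubule shrinkage, while CRMPs bind tubulin and carry semaphorin signals to the cytoskeleton, and both families are switched by phosphorylation. In young motor neurons these proteins are abundant and are known for their part in axon growth and regrowth.

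Promoter sequences are shown for 3 of the genes that differ in their values. GAP43 separated the sort fractions most in controls, by 1.82 on the log2 scale. STMN3 and DPYSL4 followed each other closely and differed less between the fractions, by 0.36 and 0.18. RefSeq entries (GRCh38.p14) were held for 7 of the 10 genes. Each sequence below is the 200 bases before the annotated start, 5′ to 3′ on the strand of the gene, from chr3:115623310-115623509 on the plus strand for GAP43, chr20:63652767-63652966 on the minus strand for STMN3 and chr10:132186748-132186947 on the plus strand for DPYSL4. Capitals mark each CANNTG (an E-box, which reads the same on both strands) and each GGGCGG or its reverse complement CCGCCC (a GC box).
GAP43: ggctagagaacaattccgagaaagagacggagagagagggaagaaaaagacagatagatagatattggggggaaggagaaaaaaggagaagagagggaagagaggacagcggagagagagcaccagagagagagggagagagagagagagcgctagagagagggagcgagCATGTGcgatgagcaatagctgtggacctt
STMN3: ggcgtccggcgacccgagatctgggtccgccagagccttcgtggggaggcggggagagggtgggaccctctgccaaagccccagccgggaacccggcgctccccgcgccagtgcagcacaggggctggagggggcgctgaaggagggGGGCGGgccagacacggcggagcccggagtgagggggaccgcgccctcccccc
DPYSL4: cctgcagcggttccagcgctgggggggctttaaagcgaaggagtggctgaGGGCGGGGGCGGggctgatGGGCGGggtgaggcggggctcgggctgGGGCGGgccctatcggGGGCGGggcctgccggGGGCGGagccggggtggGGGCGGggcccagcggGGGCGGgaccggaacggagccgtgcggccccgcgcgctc

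The GAP43 window held 1 CANNTG and 0 GC boxes at a GC content of 51.0%. In the STMN3 window there were 0 CANNTG and 1 GC box (GC 77.0%), and in the DPYSL4 window 0 CANNTG and 8 GC boxes (GC 81.0%). Among 35116 RefSeq promoter windows of the same length, 54.0% held at least 1 CANNTG and 40.1% at least 1 GC box, so that neither motif is particular to these genes. The STMN3 window lies in an intron of 2 longer STMN3 transcripts of GENCODE release 44, and the other 2 windows overlap no annotated transcript. A match to these letters is a description and not evidence of binding.

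Between 23414935 and 38347050 counts per library were assigned to genes. Levels are given as CPM (the counts of a gene as a rate over the library total, scaled by TMM over the 12 libraries), and a gene is said to have changed where edgeR's quasi-likelihood test gave a Benjamini-Hochberg adjusted p under 0.05, adjusted over all genes tested. A DEG (differentially expressed gene) had in addition to differ by 2-fold or more, which are also the study's own limits. Fold changes, their standard errors (SE) and 95% intervals come from a fit of the 6 libraries compared, with its own TMM scaling. ISL1 itself was at 65.9 ± 3.18 CPM (SD, n = 3) in the GFP-positive and 2.56 ± 0.189 CPM in the GFP-negative controls. After treatment it was at 12.0 ± 3.72 and 0.549 ± 0.153 CPM, a log2 fold change of -2.39 in GFP-positive (adjusted p = 6e-12) and -2.23 in GFP-negative cells (adjusted p = 0.0015), and the part of this fall in the results below was not tested.

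The summed CPM of the 10 genes was taken as a percent of the TMM-scaled library total, which is not the raw share of counts. It was between 1.47% and 1.64% in the control GFP-positive libraries and between 0.803% and 0.992% in the treated ones. In GFP-negative cells the share was between 0.683% and 0.788% in controls and between 0.414% and 0.479% after treatment. The treated libraries thus lay below the controls in both sort fractions, and the treated GFP-positive libraries lay above the control GFP-negative ones.

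**Figure D1:**
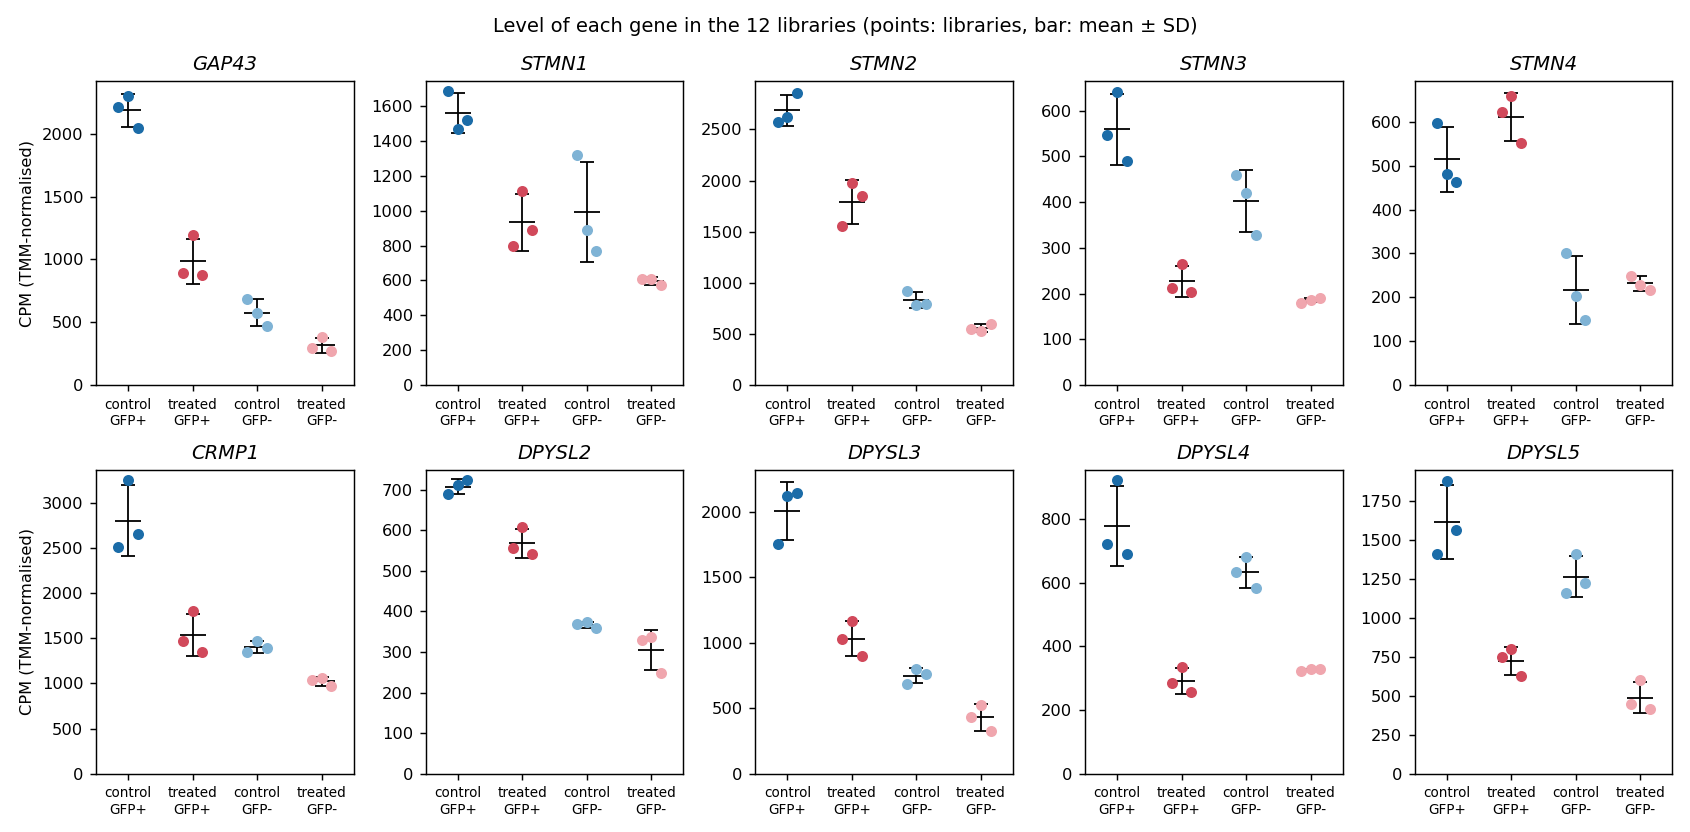
TMM-normalised CPM of the 10 genes in each of the 12 libraries, with a point for each library and a bar for the mean ± SD of the 3 libraries of a group. In GFP-positive cells the treated libraries of 9 genes lie below all controls, whereas those of STMN4 lie between 551 and 660 CPM against 463 to 598 CPM in controls.

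To learn how cis-chlordane affected these genes in motor neurons, treated and control GFP-positive libraries were compared. Most of these genes fell, with GAP43, STMN3, DPYSL4 and DPYSL5 each down by more than 2-fold in the fit used here, whereas STMN4 had a slightly higher mean and DPYSL2 a slightly lower one without passing the test. In all, 8 of the 10 genes were lower and 0 higher, where 24.4% of the 15333 genes tested were lower and 26.5% higher. As DEGs, 4 genes were lower and 0 higher, against 11.2% and 12.8% of all genes tested. The number of DEGs depended on the setting, as only STMN3 and DPYSL4 were DEGs with library size alone and only GAP43 and STMN1 after removal of a trend with GC content. A test against the fold limit itself (glmTreat) called 1 member. In the comparisons of 2 groups given here and below, each direction with 0 genes called also had 0 at an unadjusted p under 0.05 and 0 with DESeq2. For 9 genes the treated libraries all lay below the controls, which was so for 30.8% of all genes, and for 0 they all lay above, which was so for 26.7%. The median log2 fold change was -0.84 over the 10 genes and 0.03 over all genes tested. In sorted bulk RNA, fewer cells of a type and less RNA per cell cannot be told apart.

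GAP43 (chromosome 3, 115623510 to 115721490) had 2215, 2301 and 2044 CPM in the control GFP-positive libraries and 891, 1193 and 872 CPM in the treated ones. All 3 treated libraries were low, at well under the lowest control. The log2 fold change was -1.08 (SE 0.16, adjusted p = 1.1e-06), which is a level 2.11-fold lower.

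STMN1 (chromosome 1, 25884181 to 25906991), the cytosolic stathmin that dividing cells also use, had 1689, 1472 and 1523 CPM in control and 796, 1116 and 890 CPM in treated GFP-positive libraries. It fell by 0.67 on the log2 scale (SE 0.16, adjusted p = 0.00076) with no overlap between groups. STMN2 (chromosome 8, 79611117 to 79666158), the membrane-anchored stathmin of axons also called SCG10, had 2574, 2625 and 2856 CPM in controls and 1554, 1972 and 1852 CPM after treatment. Its log2 fold change of -0.51 (SE 0.16, adjusted p = 0.0069) was the smallest among the 8 genes that fell. Without treated GFP-positive replicate 1, the lowest of its treated libraries, the value was -0.43 (adjusted p = 0.064).

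STMN3 (chromosome 20, 63639705 to 63657682), also called SCLIP, fell most among the stathmins. Control GFP-positive libraries had 546, 642 and 489 CPM and treated ones 212, 265 and 203 CPM. The highest treated library was thus far below the lowest control, and the log2 fold change was -1.23 (SE 0.16, adjusted p = 1e-07), or 2.35-fold lower. STMN4 (chromosome 8, 27235308 to 27258420), also called RB3, went apart from the rest of its family. It had 598, 481 and 463 CPM in control and 623, 660 and 551 CPM in treated GFP-positive libraries, so that the highest control lay within the treated range. The log2 fold change was 0.32 (SE 0.16, 95% interval -0.004 to 0.64, adjusted p = 0.092). It passed the test under 4 of the 14 alternative fits, namely with library size alone (0.43, adjusted p = 0.017), with a replicate block (0.33, adjusted p = 0.037), after removal of a trend with GC content (0.34, adjusted p = 0.048) and without control replicate 1 (0.45, adjusted p = 0.048). The value was positive in all of them, between 0.24 and 0.45.

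CRMP1 (chromosome 4, 5748084 to 5893086), a mediator of semaphorin and reelin signals, had 2507, 3250 and 2650 CPM in control and 1471, 1797 and 1342 CPM in treated GFP-positive libraries. It fell by 0.80 on the log2 scale (SE 0.16, adjusted p = 0.00011). DPYSL2 (chromosome 8, 26514031 to 26658178), which encodes CRMP2, the member best known for carrying tubulin dimers to growing microtubules, had 689, 710 and 723 CPM in controls and 556, 607 and 540 CPM after treatment. The groups did not overlap, yet the log2 fold change of -0.25 (SE 0.15, 95% interval -0.56 to 0.06, adjusted p = 0.18) did not pass the test, and with library size alone as the scaling the 2 groups overlapped.

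DPYSL3 (chromosome 5, 147390808 to 147510068), which encodes CRMP4 and is an actin-bundling CRMP, had 1756, 2122 and 2148 CPM in control and 1026, 1167 and 903 CPM in treated GFP-positive libraries, a log2 fold change of -0.89 (SE 0.16, adjusted p = 1.8e-05). DPYSL4 (chromosome 10, 132186948 to 132205759), which encodes CRMP3, showed the largest change of the 10 genes. It had 721, 922 and 691 CPM in controls and 284, 334 and 255 CPM after treatment, and fell by 1.35 on the log2 scale (SE 0.16, adjusted p = 2.1e-08), which is 2.54-fold lower. DPYSL5 (chromosome 2, 26847747 to 26950351), which encodes CRMP5, had 1414, 1878 and 1564 CPM in controls and 749, 803 and 625 CPM after treatment. Its log2 fold change was -1.09 (SE 0.16, adjusted p = 9.4e-07). In each of the 3 CRMPs the highest treated library lay below the lowest control.

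Other genes can share reads with 2 of the CRMPs. Exons of EVC overlap those of CRMP1 and exons of PNMA2 those of DPYSL2 on the opposite strand, and the sources used here do not state whether counting used the strand. EVC had between 1.75 and 16.7 CPM over the 12 libraries and PNMA2 between 34.3 and 136 CPM. STMN1 shares exonic sequence with the microRNA gene MIR3917 on the same strand, and DPYSL5 with an antisense lncRNA that is not a row of the table.

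The same comparison was made in the GFP-negative fraction. It was not free of neuronal transcripts, as its controls held 5323 ± 459 CPM of TUBB3 and 133 ± 16.2 CPM of SLC18A3 (SD, n = 3). GAP43, STMN1, STMN2, STMN3, CRMP1, DPYSL3, DPYSL4 and DPYSL5 fell here too, 8 genes with 0 that rose, against 16.2% lower and 15.3% higher among the 15513 genes tested. As DEGs, STMN3 and DPYSL5 were lower and 0 genes higher (all genes, 9.75% and 8.59%). The treated libraries all lay below the controls for 9 genes (all genes, 22.4%) and all above for 0 (24.2%). The median log2 fold change was -0.79 over the 10 genes and -0.01 over all genes tested.

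GAP43 had 682, 572 and 467 CPM in control GFP-negative libraries and 294, 383 and 274 CPM in treated ones. These did not overlap, and the log2 fold change was -0.88 (SE 0.19, adjusted p = 0.0075). DPYSL5 fell most, from 1161, 1414 and 1222 CPM to 450, 601 and 416 CPM, with a log2 fold change of -1.40 (SE 0.18, adjusted p = 0.00045) or 2.63-fold lower. STMN3, at 460, 421 and 328 CPM in controls, had 180, 186 and 189 CPM after treatment, and fell by 1.15 on the log2 scale (SE 0.17, adjusted p = 0.00086). The 3 treated STMN3 libraries lay much closer together than the controls.

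DPYSL4 had 632, 682 and 585 CPM in control and 322, 329 and 328 CPM in treated GFP-negative libraries, a log2 fold change of -0.98 (SE 0.14, adjusted p = 8e-04) that fell just short of the DEG limit. DPYSL3 had 689, 798 and 764 CPM in controls and 432, 529 and 329 CPM after treatment, a log2 fold change of -0.83 (SE 0.19, adjusted p = 0.0089). STMN2 went from 920.1, 779 and 793 CPM to 548, 526 and 596 CPM, and fell by 0.60 on the log2 scale (SE 0.14, adjusted p = 0.01). In all 3 genes the treated libraries lay below every control.

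The calls of STMN1 and CRMP1 in GFP-negative cells were less firm. STMN1 had 1319, 891 and 771 CPM in control libraries, of which replicate 1 was high, and 607, 610 and 573 CPM in treated ones, and fell by 0.76 on the log2 scale (SE 0.20, adjusted p = 0.017). Without control replicate 1 it fell by 0.50 (adjusted p = 0.027). Without treated replicate 1 or 3 its adjusted p was 0.056 or 0.054. CRMP1 had 1347, 1470 and 1393 CPM in controls and 1040, 1061 and 966 CPM after treatment, a log2 fold change of -0.48 (SE 0.13, adjusted p = 0.019). Its adjusted p was 0.11 without control replicate 2 or after removal of the GC trend (-0.28), and 0.066 without treated replicate 1.

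The other 2 genes did not pass the test in GFP-negative cells. STMN4 had 300.1, 203 and 147 CPM in controls and 249, 229 and 217 CPM after treatment, so that the treated libraries lay inside the control range (log2 fold change 0.07, 95% interval -0.46 to 0.60, adjusted p = 0.85). Its direction rested on control replicate 3, without which the value was -0.14. DPYSL2 had 368, 373 and 359 CPM in controls and 330, 336 and 249 CPM after treatment, a log2 fold change of -0.29 (95% interval -0.65 to 0.07, adjusted p = 0.20).

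**Figure D2:**
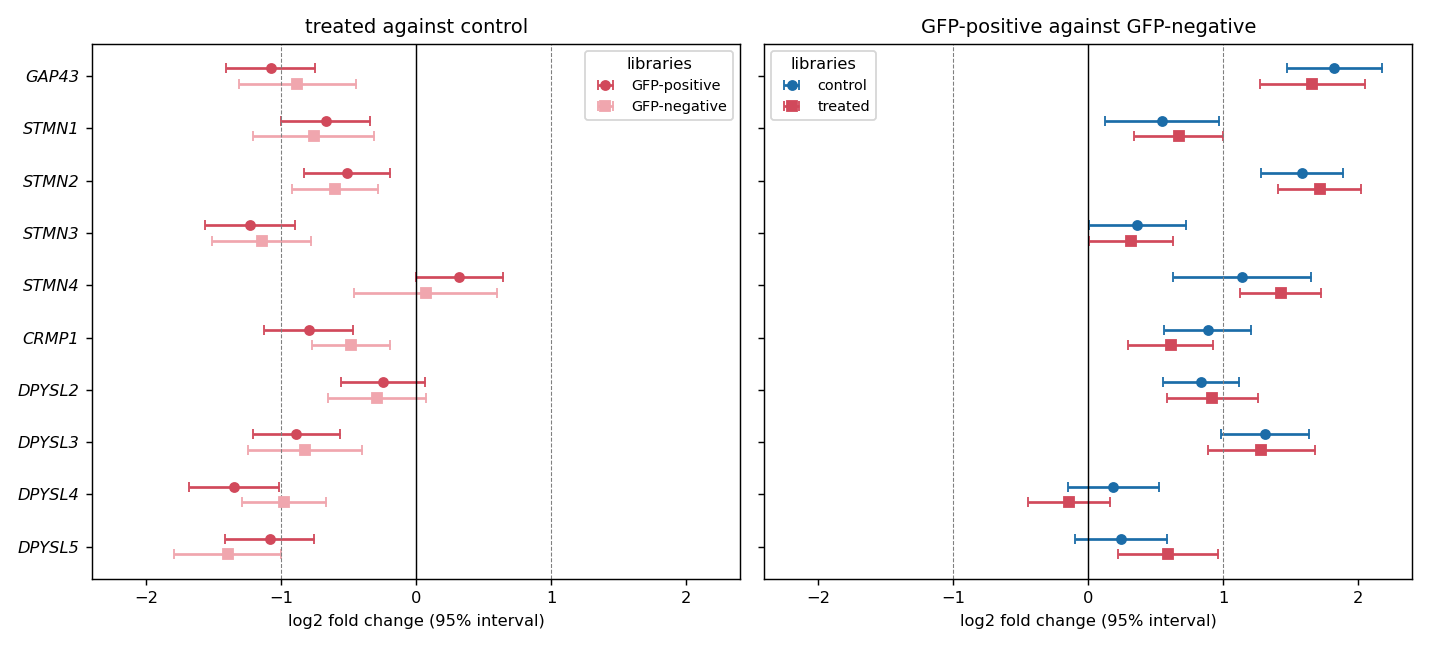
Log2 fold changes of the 10 genes with their 95% intervals, for treated against control libraries in each sort fraction (left) and for GFP-positive against GFP-negative libraries in each treatment group (right). Dashed lines mark a fold change of 2. On the left the points of GAP43, STMN1, STMN2, STMN3 and the CRMPs lie below 0 in both fractions, and on the right those of STMN3, DPYSL4 and DPYSL5 lie nearest to 0.

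Whether the response differed between the sort fractions was tested with an interaction term in all 12 libraries, that is, the log2 fold change in GFP-positive minus that in GFP-negative cells. None of the 10 genes was called, where 0.968% of 16226 genes were called higher and 1.22% lower. At an unadjusted p under 0.05 there was 1 gene, DPYSL4 (-0.45, 95% interval -0.89 to -0.02, adjusted p = 0.28), and DESeq2 called 0. The remaining values ran from -0.40 for CRMP1 (95% interval -0.81 to 0.01, adjusted p = 0.31) to 0.22 for DPYSL5 (95% interval -0.26 to 0.71). The value of STMN2 (0.004, 95% interval -0.38 to 0.39) leaves room for a moderate difference in either direction. The interval of GAP43 (-0.29, 95% interval -0.80 to 0.23) reached further towards a larger fall in GFP-positive cells than towards a smaller one.

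The sort fractions were compared next within each treatment group. In controls, GAP43, STMN2, DPYSL3 and STMN4 were DEGs higher in GFP-positive cells, STMN1, CRMP1 and DPYSL2 were higher by less, and STMN3, DPYSL4 and DPYSL5 did not pass the test. That made 7 genes higher and 0 lower, against 17.1% and 23.1% of the 15404 genes tested, with 4 DEGs higher and 0 lower, against 7.47% and 15.3%. In 9 genes every GFP-positive library lay above every GFP-negative one (all genes, 29.5%), and in 0 below (23.8%). The median log2 fold change was 0.86 over the 10 genes and -0.02 over all genes tested.

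The values of each library are those given above for the treatment comparisons. Control GFP-positive libraries held 2187 ± 131 CPM of GAP43 (SD, n = 3) against 574 ± 108 CPM in GFP-negative ones, a log2 fold change of 1.82 (SE 0.16, adjusted p = 1.5e-05). For STMN2 the means were 2685 ± 150.3 and 831 ± 77.7 CPM, a log2 fold change of 1.58 (SE 0.14, adjusted p = 1.5e-05). DPYSL3 was 2.47-fold higher (log2 fold change 1.31, adjusted p = 7.6e-05) and STMN4 2.20-fold higher (1.14, adjusted p = 0.0031). In each of these 4 genes the lowest GFP-positive library lay well above the highest GFP-negative one.

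CRMP1 (log2 fold change 0.88, adjusted p = 0.00086) and DPYSL2 (0.83, adjusted p = 0.00056) were higher in control GFP-positive cells by less than 2-fold. STMN1 was 1.46-fold higher (0.54, 95% interval 0.12 to 0.97, adjusted p = 0.043), with GFP-negative replicate 1 at 1319 CPM near the lowest GFP-positive library at 1472 CPM. This call was lost without any of 5 of the 6 libraries (GFP-negative replicate 2 or 3 or any GFP-positive replicate), with an adjusted p between 0.066 and 0.14. GC trend removal gave an adjusted p of 0.12 and a minimum of 10 counts in every library gave 0.052. In all, 8 of 15 fits called STMN1 here. STMN3 (0.36, 95% interval 0.003 to 0.72, adjusted p = 0.099), DPYSL4 (0.18, 95% interval -0.15 to 0.52, adjusted p = 0.36) and DPYSL5 (0.24, 95% interval -0.10 to 0.58, adjusted p = 0.23) did not pass the test. After removal of a trend with GC content in each library these 3 genes were called higher at 0.65, 0.48 and 0.54 (adjusted p = 0.0014, 0.0079 and 0.0086), and STMN3 was also called with library size alone (0.40, adjusted p = 0.035), with a replicate block (0.37, adjusted p = 0.029), in the fit of all 12 libraries (0.47, adjusted p = 0.025) and without GFP-negative replicate 1 (0.46, adjusted p = 0.044).

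In treated cells 8 genes were higher in the GFP-positive fraction and 0 lower, where 24.9% of the 15416 genes tested were higher and 24.9% lower. Of these, 4 were DEGs and 0 DEGs were lower (all genes, 10% and 13.7%), namely STMN2 at 1.71, GAP43 at 1.66, STMN4 at 1.42 and DPYSL3 at 1.28 on the log2 scale. The GFP-positive libraries lay above all GFP-negative ones in 9 genes (all genes, 28.1%) and below in 0 (29.6%). The same 4 genes therefore led in both treatment groups, although the GAP43 level in treated GFP-positive cells, 985 ± 180.4 CPM (SD, n = 3), was less than the control level of the same fraction.

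DPYSL5 passed the test in treated cells (0.59, SE 0.17, adjusted p = 0.012), but its adjusted p was 0.060 without GFP-negative replicate 1 and 0.054 without GFP-positive replicate 2. STMN3 did not pass (0.31, 95% interval 0.004 to 0.62, adjusted p = 0.085), and it was called with library size alone (0.48, adjusted p = 0.012) and after removal of the GC trend (0.69, adjusted p = 0.0011). DPYSL4 was the only gene with a negative value, at -0.14 (95% interval -0.45 to 0.16, adjusted p = 0.42), since the GFP-positive libraries at 255 to 334 CPM spanned the GFP-negative ones at 322 to 329 CPM. Its sign turned with the scaling, to 0.02 with library size alone and to 0.24 after GC trend removal.

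Levels of different genes were compared per length, as CPM per kb of the Ensembl canonical transcript. In control GFP-positive cells GAP43 (1460 ± 87.2, SD, n = 3) and STMN2 (1411 ± 79.0) were highest and overlapped each other, and STMN1 (1082 ± 78.7) and CRMP1 (883 ± 124) followed, overlapping as well. DPYSL3, DPYSL5, DPYSL4, STMN3 and STMN4 came next in that order, each overlapping its neighbour, from 366 ± 39.9 down to 222 ± 31.6. DPYSL2 was lowest at 147 ± 3.67 and did not overlap STMN4.

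After treatment the order in GFP-positive cells was headed by STMN2 (942 ± 113 CPM per kb), which no longer overlapped GAP43 (658 ± 121). STMN4 moved from the ninth to the fifth place at 263 ± 23.9 and lay above DPYSL3 with no overlap. STMN3 came last at 101 ± 14.9, and DPYSL5, DPYSL2, DPYSL4 and STMN3 overlapped from each to the next. In GFP-negative cells STMN1 was highest both in controls (689 ± 199) and after treatment (414 ± 14.3), followed by CRMP1 and STMN2, which overlapped each other. STMN1 had 6247 bases in the union of its annotated exons against 1443 in its canonical transcript, and with the union as the length, a choice made after seeing the data, it fell to the sixth place in control cells of both fractions. With the union as the length, STMN2 (1315 ± 73.6) already lay above GAP43 (1150 ± 68.7) in control GFP-positive cells, with no overlap. The parting of these 2 genes after treatment thus depended on the length used.

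Within the stathmin family the make-up shifted towards STMN4. Its share of the summed stathmin CPM per kb was 7.47% ± 0.941 (SD, n = 3) in control and 13.6% ± 1.69 in treated GFP-positive cells, and 6.55% ± 1.01 and 11.2% ± 0.729 in GFP-negative cells. The ranges did not overlap, with 6.71% to 8.52% against 12.4% to 15.5% in GFP-positive and 5.47% to 7.47% against 10.5% to 12.0% in GFP-negative cells. STMN3 moved the other way, from 8.41% ± 1.31 to 5.16% ± 0.392 in GFP-positive and from 12.9% ± 1.32 to 9.28% ± 0.296 in GFP-negative cells, again with no overlap. The STMN2 share separated the sort fractions, at 47.6% ± 2.87 of the sum in control GFP-positive and 31.8% ± 3.99 in control GFP-negative cells. The STMN1 share was higher in GFP-negative cells (48.8% ± 3.56 against 36.5% ± 1.92 in controls) and was also lower in treated than in control GFP-positive libraries, at 31.9% to 35.0% against 35.3% to 38.7%. All shares rest on the length of the canonical transcript. With the union of exons as the length, STMN2 (407 ± 38.1 CPM per kb) lay above STMN1 (159 ± 46.1) in control GFP-negative cells.

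Among the CRMPs, CRMP1 made up the largest share in all 4 groups, between 38.9% ± 0.740 in control GFP-negative and 47.4% ± 2.04 in treated GFP-negative cells. The DPYSL2 share was 7.43% ± 0.788 in control and 11.5% ± 0.808 in treated GFP-positive cells, and 6.74% ± 0.330 and 9.30% ± 0.850 in GFP-negative cells, with no overlap in either. DPYSL4 went from 14.6% ± 1.03 to 10.5% ± 0.0601 in GFP-positive cells, and DPYSL5 from 21.5% ± 0.948 to 13.8% ± 1.63 in GFP-negative cells. The DPYSL3 share hardly moved with treatment and differed by sort fraction, at 18.3% ± 1.64 in control GFP-positive and 12.0% ± 0.509 in control GFP-negative cells. A share can move because another member of the sum moved, and no test was made of the shares.

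**Figure D3:**
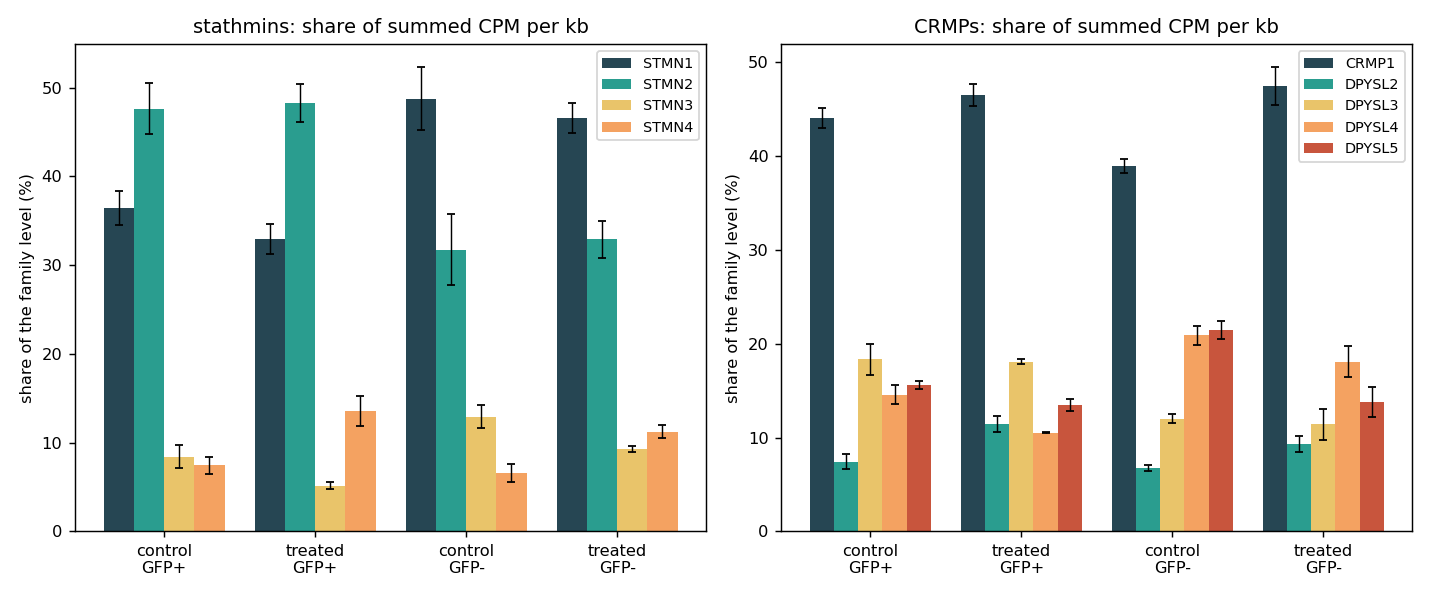
Share of each gene in the summed CPM per kb of its family, for the stathmins (left) and the CRMPs (right). Bars are the mean ± SD of 3 libraries per group, with the canonical transcript as the length. The STMN4 bar is higher in treated than in control cells of both sort fractions (13.6% against 7.47% in GFP-positive cells), and the STMN3 bar is lower.

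Over the 12 libraries 2 patterns stood out, with other genes between them. STMN3, DPYSL4 and DPYSL5 were alike, with Pearson's r of log2 CPM at 0.95 for STMN3 with DPYSL4, 0.95 for STMN3 with DPYSL5 and 0.90 for DPYSL4 with DPYSL5. GAP43, DPYSL3, STMN2 and DPYSL2 formed the other pattern, with r between 0.93 and 0.98. The 2 patterns were not cleanly apart. STMN1 had r of 0.92 with GAP43, 0.88 with STMN3 and 0.82 with DPYSL5, and DPYSL3 had 0.80 with DPYSL5. STMN4 was nearest to STMN2 and DPYSL2 (0.84 for each) and had r of -0.08 with DPYSL4. These are descriptions over 12 libraries that share treatment and sort groups, and the 3 genes of the first pattern also share a high GC content of their longest annotated transcript (63.5% for STMN3, 62.6% for DPYSL4 and 58.0% for DPYSL5, against 41.8% for STMN2 and 47.6% for GAP43). CRMP1, at 57.9%, had r of 0.95 with GAP43 and 0.83 with DPYSL5, and STMN1 had a GC content of 39.3%. The part of GC content in these patterns was not tested.

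**Figure D4:**
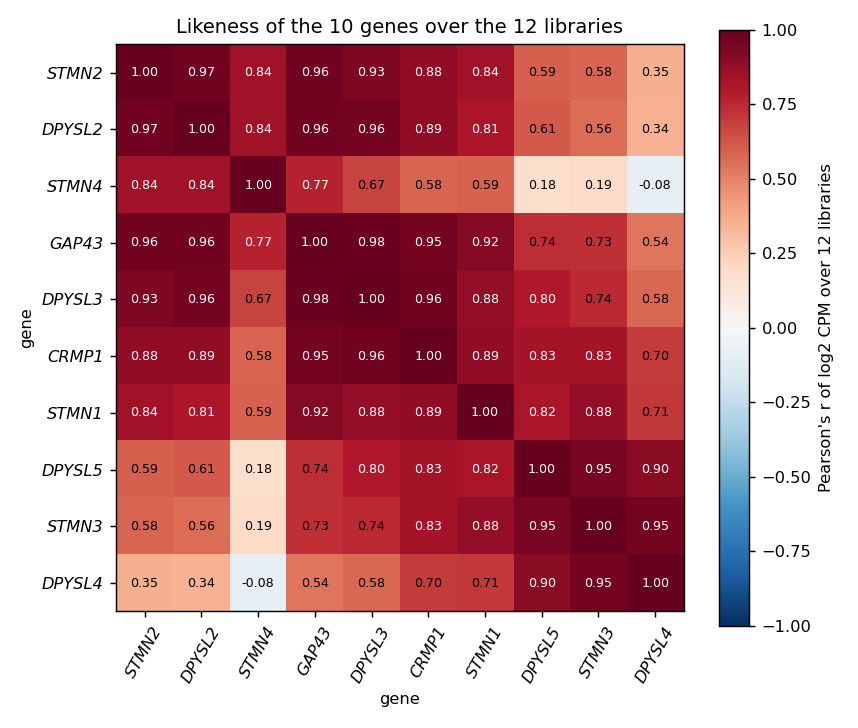
Pearson's r of log2 CPM over the 12 libraries for each pair of the 10 genes, printed in each cell, with rows and columns in the same order. STMN3, DPYSL4 and DPYSL5 form a block in the lower right corner with r from 0.90 to 0.95, and STMN4 has its lowest values with them, down to -0.08.

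Among 9637 genes with a mean of at least 10 CPM, those whose pattern over the 12 libraries was most like GAP43 were NSG1, SNCB and GRK5 (r between 0.992 and 0.993). STMN2 was most like MLLT11 (0.991), STMN3 most like THY1 (0.994) and STMN4 most like TCEAL2 (0.985). For DPYSL3 the nearest gene was SEPTIN3 (0.996), for CRMP1 MAPRE3 (0.993), for DPYSL2 SPTAN1 (0.992), for DPYSL4 VSTM2L (0.992) and for DPYSL5 SLC25A23 (0.990). STMN1 had the least close match, GSTA4 at 0.977.

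Genes that act with GAP43, the stathmins or the CRMPs were followed in 8 lists of 102 genes in all. In GFP-positive cells 101 of them were tested, and 41 were lower and 16 higher after treatment, with 17 DEGs lower and 4 higher (all genes as above, 24.4%, 26.5%, 11.2% and 12.8%). In GFP-negative cells 29 of 100 tested were lower and 11 higher (all genes, 16.2% and 15.3%), and these counts were 17 and 4 without treated replicate 1 and 18 and 4 without control replicate 2, and 5 were higher without treated replicate 2. These genes were listed with earlier results of these data known, so the counts are descriptions.

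Of 12 growth-cone membrane proteins related to GAP43, 11 were tested in GFP-positive cells, and 8 fell and 1 rose (all genes, 24.4% and 26.5%). MARCKSL1, a protein kinase C substrate of the membrane, went from 2504 ± 244 to 880.4 ± 152 CPM (SD, n = 3 each; log2 fold change -1.44, adjusted p = 5.1e-09). PLPPR3 fell by 1.37 on the log2 scale (adjusted p = 7.7e-08), and its relative PLPPR4, at a mean of 1.26 CPM, rose by 0.96 (adjusted p = 0.028). Of 15 genes for protein kinase C, calmodulin and palmitoylation, 7 fell and 3 rose (all genes, 24.4% and 26.5%). Neurogranin (NRGN), a calmodulin-binding protein that shares the IQ motif of GAP43, had a log2 fold change of -2.47 (adjusted p = 8.3e-11) and the calmodulin gene CALM3 one of -1.14 (adjusted p = 3.3e-07). The palmitoyl transferases ZDHHC2 (0.80, adjusted p = 0.0013) and ZDHHC17 (0.60, adjusted p = 0.0056) and the depalmitoylating enzyme LYPLA1 (0.49, adjusted p = 0.036) rose.

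All 10 RNA-binding regulators of GAP43 or STMN2 transcripts were tested in GFP-positive cells, and 7 fell and 0 rose (all genes, 24.4% and 26.5%). ELAVL4 (HuD), which is known to stabilise GAP43 mRNA, went from 179 ± 22.7 to 66.0 ± 9.60 CPM (SD, n = 3 each; log2 fold change -1.37, adjusted p = 1.8e-08). CELF4 fell by 1.16 (adjusted p = 7.4e-07). In GFP-negative cells 8 of the 10 fell and 0 rose (all genes, 16.2% and 15.3%). Of 12 regeneration-associated transcription factors, 7 rose and 1 fell in GFP-positive cells (all genes, 26.5% and 24.4%). The list did not separate factors that promote axon regrowth from factors that restrain it. These counts thus say nothing about regrowth itself. ATF3, a factor of injured neurons, went from 16.9 ± 1.95 to 374 ± 48.2 CPM (log2 fold change 4.54, adjusted p = 4.5e-20) and KLF4, at a mean of 1.76 CPM, rose by 4.18 (adjusted p = 1.4e-09). SOX4 fell by 1.30 (adjusted p = 5.3e-08).

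Of 12 kinases and phosphatases of CRMPs, 4 fell and 2 rose in GFP-positive cells (all genes, 24.4% and 26.5%), with CDK5 at -1.43 (adjusted p = 1.2e-07) and its activator CDK5R1 at -0.68 (adjusted p = 0.00049). Of 11 genes of the JNK pathway acting on stathmins, 4 fell and 0 rose, among them MAP3K12 (DLK) at -1.20 (adjusted p = 1.4e-07) and the axon degeneration enzyme SARM1 at -1.10 (adjusted p = 6.1e-07). Of 17 other microtubule end and turnover proteins, 6 fell and 2 rose, with the tubulin-binding TPPP3 at -2.07 (adjusted p = 8.5e-11) and the depolymerising kinesin KIF2A at 1.16 (adjusted p = 1.2e-06). Of 13 growth-cone partners of CRMPs, 4 fell and 1 rose, with MICAL3 at -1.13 (adjusted p = 8.1e-07) and KIF5B at 0.82 (adjusted p = 9e-05).

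Markers of cell types moved with both comparisons, and their part in the results above was not tested. The summed level of 7 motor neuron markers was between 1179 and 1391 CPM in control and between 286 and 434 CPM in treated GFP-positive libraries, where 6 of the 7 fell (all genes, 24.4%). It was between 195 and 217 CPM in control and between 62.7 and 82.1 CPM in treated GFP-negative libraries. Of 6 general neuron markers, 3 fell and 2 rose in GFP-positive cells (all genes, 24.4% and 26.5%). TUBB3 was at -1.29 (adjusted p = 1.4e-07), RBFOX3 at -1.18 (adjusted p = 5.2e-06) and ELAVL3 at -0.70 (adjusted p = 0.00028). SNAP25 was at 0.99 (adjusted p = 4.8e-06), SYT1 at 0.93 (adjusted p = 1.2e-05) and MAP2 at -0.32 (adjusted p = 0.10). The summed level of 6 proliferation markers, which bears on STMN1, was between 71.8 and 107 CPM in control GFP-positive and between 537 and 731 CPM in control GFP-negative libraries, and between 46.1 and 50.1 CPM and between 188 and 274 CPM after treatment. Neural progenitor markers summed to between 1784 and 2026 CPM in control and 1151 and 1348 CPM in treated GFP-positive libraries, a sum that is mostly NES (1502 ± 168 CPM in controls). Of these markers NES (-0.45, adjusted p = 0.018) and NKX6-1 (-0.89, adjusted p = 1.1e-05) fell, and PAX6 (2.01, adjusted p = 5e-10) and OLIG2 (0.97, adjusted p = 0.002) rose. Microglial markers summed to at most 0.601 CPM in GFP-positive and 1.59 CPM in treated GFP-negative libraries. In control GFP-negative cells they summed to 38.0 CPM in replicate 3, 0.176 CPM in replicate 2 and 0 in replicate 1. Without control GFP-negative replicate 3, 8 members were again lower after treatment in GFP-negative cells, and 4 rather than 2 of them were DEGs.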

How the data were processed

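The deposited table holds raw counts per gene symbol that the authors made from single-end stranded reads, mapped to hg38 with HISAT2. The labels' processing notes also name featureCounts, and the versions and the strand setting of the counting are not given in the sources used here. Groups came from the sample labels, and 0 per-sample columns were left unused. Counts were tested with edgeR 4.0.16 in R 4.3.3, with TMM scaling, filterByExpr (minimum count 10, minimum total 15), the quasi-likelihood test and Benjamini-Hochberg adjustment over all genes tested. Treatment was compared within each sort fraction, sort fractions within each treatment group, and the interaction in all 12 libraries, after tests on simulated counts. Exact permutation tests of single genes were not made, since 3 against 3 libraries allow no p below 0.1. The depth, between 23414935 and 38347050 counts per library, sets the counting error only.

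The 10 genes, the related lists, the cell type markers and the alternatives were chosen with earlier results of these data known. All 10 genes were named. From each list, the 2 genes with the largest change in treated GFP-positive cells were named among those with an adjusted p under 0.05 and a mean of at least 1 CPM, with any gene called in the opposite direction, and some genes that this rule picks are not reported here. The 3 genes most alike were ranked by Pearson's r, of which some are printed. Log2 CPM for likeness used a prior count of 2.

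Alternatives were DESeq2 1.42.0, RLE scaling, library size alone, no filter on low counts, a minimum of 10 counts in each library, removal of a GC trend (loess, span 0.5), the replicate number as a block, a fit of all 12 libraries, glmTreat against a fold change of 2, and each library left out in turn. Gene positions, lengths and GC content came from GENCODE release 44 on hg38, a later annotation than the authors', to which 25763 of 28278 symbols matched. No 2 libraries of a group agreed within sampling noise. The labels do not say that a replicate number marks a shared culture. Deviations from the group means of same-numbered GFP-positive and GFP-negative libraries correlated at 0.16 to 0.36 in treated cells and at 0.085 to 0.28 in controls, over 16226 genes. The values printed come from fits without a block, and the block is an alternative. Plots were made in Python 3.11.15 (matplotlib 3.10.9).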

Additional observations from a re-analysis of the deposited data

How the results depend on the processing

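For the 10 genes, 684 of the 750 values of log2 fold changes under the alternatives kept their direction and their side of the threshold. Of the rest, 38 changed sign, 15 were no longer called and 13 became called. The 8 genes lower with treatment in GFP-positive cells were between 7 and 8 with each library left out in turn, 3 to 4 of them DEGs, and 0 to 1 genes were higher. In GFP-negative cells 6 to 8 were lower, 2 to 4 of them DEGs, and in the sort comparisons 6 to 8 genes were higher in controls and 7 to 8 in treated cells. With library size alone, 1 gene (STMN4) was higher with treatment in GFP-positive cells and 2 DEGs were lower, and the same counts were 1 and 2 after GC trend removal. With a replicate block 1 gene was higher, again STMN4 (0.33, adjusted p = 0.037), and STMN3 was called in the sort comparison of controls (0.37, adjusted p = 0.029). glmTreat called 1 DEG lower in GFP-positive and 0 in GFP-negative cells, and 2 higher in the sort comparison of controls.

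The replicate block changed no other call of the 10 genes. Same-numbered libraries correlated at -0.02 to 0.13 between control and treated GFP-positive cells and at -0.05 to 0.28 in GFP-negative cells, and 4 of 6 and 2 of 6 libraries correlated best with their own number, against 6 of 6 between the sort fractions in both treatment groups.

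Among the related genes, DEGs higher in GFP-positive cells were 2 with at least 10 counts in every library, those changed higher were 10 after GC trend removal and 9 in the fit of all 12 libraries, and DEGs lower were 11 after GC trend removal and 5 with glmTreat. In GFP-negative cells 6, 7 and 7 were higher with library size alone, without a filter and with a replicate block, and glmTreat gave 2 higher and 2 lower. With each library left out, 4 to 13 were higher there, 17 to 34 lower, and 3 to 7 were DEGs higher.

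Sign changes came mostly from interaction values near 0. DPYSL2 was 0.0176 under DESeq2, 0.0175 with RLE scaling, 0.0233 after GC trend removal, 0.20 with library size alone and 0.11 with at least 10 counts in every library. STMN3 was 0.0780 with library size alone and 0.0252 after GC trend removal, and DPYSL3 was 0.10 with library size alone and 0.00858 with at least 10 counts in every library. STMN1 was -0.00617 without a filter, -0.0465 with the block and -0.0757 after GC trend removal, and STMN2 -0.00516, -0.00377 and -0.0807. With each library left out, the interaction lay between -0.23 and 0.26 for STMN1, -0.0668 and 0.25 for STMN2, -0.30 and 0.0567 for STMN3, -0.12 and 0.38 for STMN4, -0.15 and 0.15 for DPYSL2, and -0.29 and 0.0933 for DPYSL3. Elsewhere, DPYSL4 in the sort comparison of treated cells was 0.0212 with library size alone and 0.24 after GC trend removal, and STMN4 with treatment in GFP-negative cells lay between -0.14 and 0.38 with each library left out. The causes were not tested.

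Library size alone moved the median of all genes from 0.03 to 0.14 with treatment in GFP-positive cells, from 0.05 to 0.22 in the sort comparison of treated cells, where calls higher and lower went from 3832 and 3846 to 4931 and 3045, and from -0.05 to 0.20 in the interaction. GC trend removal moved it from -0.02 to 0.15 in the sort comparison of controls, with calls from 2638 and 3554 to 4340 and 3115. Interaction calls were 157 higher and 198 lower, 411 and 378 with DESeq2, 519 and 745 with the block and 266 and 84 with library size alone. With 3 libraries per group, differences of the size seen for DPYSL2 and STMN4 were not resolved.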
